A study of Mus musculus with 4 samples.

Results

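The cytosolic ribosome is built from ribosomal RNA and about the same set of proteins in every cell, and the mouse gene symbols of these proteins begin with Rpl for the large subunit and Rps for the small subunit. The genes described here were the symbols that start with Rpl or Rps followed by a digit, or with Rplp followed by a digit, without symbols marked -ps and without the ribosomal S6 kinases, if at least 1 of the 4 libraries held 10 or more reads. Of 85 matching symbols 83 met this rule, 50 of the large and 33 of the small subunit, among 23337 symbols in all. *Rpl26*, at 0 reads in every library, and *Rpl10l*, with 2 reads in 1 library and 0 in the others, did not meet it. *Rps19bp1* and *Rpl7l1* fall under the pattern by name but encode factors that act with the ribosome rather than ribosomal proteins, *Rps4y2* is an older symbol for a transcribed pseudogene, and *Rpl3l*, *Rpl22l1*, *Rpl36al*, *Rpl39l* and *Rps27l* are paralogs named after another member. Without these, 75 members were left.

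Ribosomal protein mRNAs are among the most abundant in a cell, and their products are assembled in the nucleolus with ribosomal RNA in near equal numbers. Many of these genes begin transcription at a pyrimidine tract, known as a 5′ TOP (terminal oligopyrimidine) motif, through which their translation follows mTOR and LARP1, and many carry small nucleolar RNAs in their introns. They also have numerous processed pseudogenes, so that short reads on them are hard to place. PIMT, encoded by *Tgs1* (also named *Ncoa6ip*), is a coactivator-interacting protein with an RNA methyltransferase domain that converts the cap of small nuclear and small nucleolar RNAs to a trimethylguanosine cap.

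RNA-seq of whole hearts was carried out in 4 groups of mice of strain C57BL6/J, each represented by a single library. Controls were PIMT fl/fl mice with loxP sites around exons 3 and 4 of *Tgs1*, taken when 2 or 6 months old, and age-matched csPIMT-/- mice carried in addition the Cre recombinase under the α-MyHC promoter, which is active in cardiomyocytes, so that other cells of the heart kept the gene. RNA from hearts of 5 mice, males and females, was pooled for each library. There was thus 1 library per group, and a difference between 2 libraries had no replicate check. Reads recovered from the deposited normalized counts, as whole multiples of the value of 1 read, came to between 29823073 and 40705783 per library. *Tgs1* had 670 reads in the control and 130 in the csPIMT-/- library at 2 months, a ratio of 0.271, and at 6 months 928 against 156, giving 0.194. Those reads were counted over the whole gene and not only over the deleted exons. Cardiomyocyte markers were abundant in every library, with a summed normalized count of 3166631 and 3641395 in the younger and older controls and 2436010 and 1738238 in the younger and older csPIMT-/- hearts. *Ttn*, which encodes the giant sarcomere protein titin, made up between 41.0% and 67.2% of these sums and was at ratios of 0.561 at 2 months and 0.284 at 6 months. Over the 8 cardiomyocyte markers the median ratio was 1.08 at 2 months, with 4 above 1, and 0.822 at 6 months, with 3 above 1. *Myl3*, a ventricular myosin light chain, was at 1.40 at both ages. Markers of other tissues differed between the 2-month libraries, the control being low in atrial markers. At 2 months the median ratio was 44.4 for 6 atrial, 89.3 for 6 lung and 51.1 for 6 brown fat markers. At 6 months the medians were 0.594, 3.31 over 2 genes and 0.390 over 5 genes. Atrial markers summed to 41411 and 122779 normalized counts in the 2- and 6-month controls and 335379 and 351142 in the csPIMT-/- libraries. *Nppa*, which the paper used as an indicator of heart failure, held 38182 and 70659 of these in the 2- and 6-month controls. In the 2- and 6-month csPIMT-/- libraries it held 201180 and 320296. At 6 months *Nppa* was at a ratio of 4.42 and *Sln* at 0.411, and 2 of the 6 atrial ratios were above 1. *Bmp10* had 6 and 7159 reads in the controls and 6946 and 1037 in the csPIMT-/- libraries. At 2 months 5 of the 6 ratios were above 1 for lung and for brown fat markers. *Ager* of the lung was at 0.254 and *Fabp4* of brown fat at 0.307. Brown fat markers summed to 12204 and 10996 in control and csPIMT-/- hearts of 2 months, and *Fabp4* held 10296 and 3225 of these. In the same libraries *Adipoq* had 6 and 1484 reads and *Plin1* 4 and 1286. The 8 lung markers summed to 1360 normalized counts in the 2-month csPIMT-/- library and to between 38.7 and 130 in the others, and 5 of them were at 0 in the 2-month control. Median ratios at 2 and 6 months were 0.746 and 1.78 for 7 fibroblast markers and 0.580 and 0.552 for 5 endothelial markers. Leukocyte markers summed to 7181 and 21846 normalized counts at 2 months and to 18681 and 27860 at 6 months, and all 8 of those found were above 0 in each library. Of 5 red cell markers found, the erythroid heme synthesis gene *Alas2* had reads, with normalized counts of 3832 and 2313 in control and csPIMT-/- hearts of 2 months (a ratio of 0.592) and 2855 and 12284 in those of 6 months (4.19), and the other red cell markers were at 0 in each library. The part of these cells in the results below was not tested. In RNA of whole tissue, more cells of a type and more RNA per cell cannot be told apart.

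Reads on the ribosomal protein genes made up a larger share of the csPIMT-/- libraries than of the controls at both ages. They held 0.706% of the reads on genes in the 2-month control (281265 reads) and 0.706% in the 6-month control (287365 reads). The share was 1.05% in the 2-month csPIMT-/- library (312198 reads) and 1.03% in the 6-month csPIMT-/- library (371566 reads). The shares of the controls differed by far less than either differed from the csPIMT-/- libraries. The ratio of shares was 1.48 at 2 months (95% Clopper-Pearson interval 1.48 to 1.49) and 1.46 at 6 months (1.45 to 1.46), and these intervals, like all intervals given here, cover counting error only and not the variation between mice. The large-subunit genes went from 0.380% to 0.580% at 2 months and from 0.411% to 0.564% at 6 months, and the small-subunit genes from 0.326% to 0.467% and from 0.295% to 0.463%. A few genes carried much of these reads. The 10 members with the most reads held between 46.4% and 56.2% of all reads on members, 41 members had 1000 or more reads in every library, and 4 had under 100 in each.

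For single genes, csPIMT-/- hearts were compared with age-matched controls by the ratio of their reads, after scaling both libraries by the median of ratios over all genes, for genes with 10 or more reads in 1 of them. At 2 months the median ratio over the members was 1.31 (log2 0.39), and 62 of 83 had a ratio above 1, where 48.9% of all 15152 genes did and the median of all genes was 0.980. At 6 months the median was 1.49 (log2 0.58) over 82 members, *Rpl30* having too few reads, and 59 were above 1, against 49.1% of all 15218 genes with a median of 0.977. The shift was modest for most members. At 2 months 6 of 83 (7.23%) were above 2-fold, a smaller share than the 16.4% of all genes. At 6 months 16 of 82 (19.5%) were, a larger share than the 16% of all genes. Ratios below 0.5 were found for 6 members at 2 months (23% of all genes) and 9 at 6 months (25.7% of all genes). The members thus lay closer together than genes at large, on the higher side, as the cumulative curves show. The subunits had close medians, 1.36 for the large and 1.30 for the small subunit at 2 months and 1.47 and 1.62 at 6 months. The whole counting interval lay above 1 in 53 members at 2 months (41.4% of all genes) and 56 at 6 months (41.7%), and below 1 in 14 (42.8%) and 18 (43.4%). Between the control pools of the 2 ages the median ratio of 6 over 2 months was 0.894, and 63 of 83 members were lower at 6 months, where 49.3% of all genes were. Only 3 members were above 2-fold (8.15% of all genes) and 3 below 0.5 (5.21%) between the controls. Between the csPIMT-/- pools of the 2 ages the median ratio was 1.03.

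**Figure D1:**
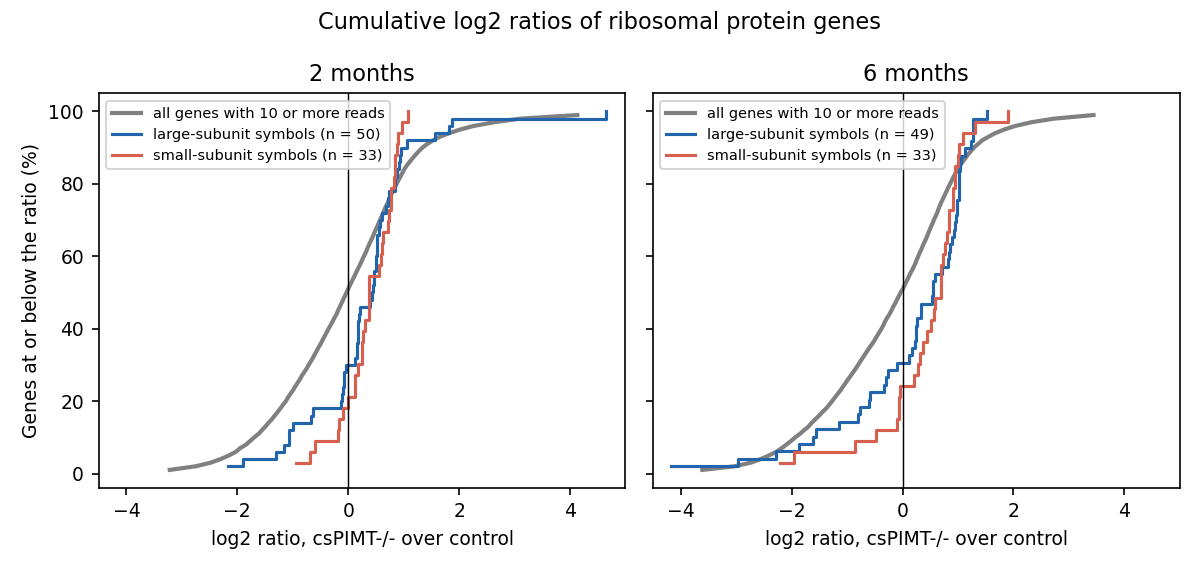
Cumulative distribution of the log2 ratio of csPIMT-/- over control at 2 months (left) and 6 months (right): the vertical axis gives the percentage of genes at or below the ratio on the horizontal axis, in grey for all genes with 10 or more reads (1st to 99th percentile) and in blue and red for members of the large and small subunit. The curves of both subunits cross 50% to the right of 0, at medians of 1.36 and 1.30 at 2 months and 1.47 and 1.62 at 6 months.

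Ribosomal protein transcripts are short, and the ratios moved with transcript length and GC content across all genes. The longest annotated transcript of the members had a median of 1094 bases, against 3281 bases for all genes compared. Among genes with transcripts under 1000 bases, the median ratio at 2 months was 1.42 for 36 members and 1.46 for all 870 genes, and from 1000 to 2000 bases it was 1.31 for 33 members and 1.45 for 2511 genes. At 6 months the medians were 1.76 and 1.40 under 1000 bases and 1.24 and 1.34 from 1000 to 2000 bases. With transcripts of 2000 bases or more the members were higher than all genes at both ages, at medians of 1.17 for 14 members and 0.879 for 11595 genes at 2 months and of 1.18 for 13 members and 0.889 for 11624 genes at 6 months. These groups use the longest transcript, and several of the 14 members have a much shorter annotated principal transcript. It has 519 bases in *Rpl35a*, 589 in *Rps13*, 738 in *Rpl9* and 774 in *Rps19*. In others, such as *Rps15a* with 5179 bases, it is the longest one. Once the trend with length over all genes was subtracted, the members' median log2 ratio was -0.018 at 2 months and 0.25 at 6 months. GC content ordered the members in the same way as all genes. Spearman's rho of the log2 ratio with the GC content of the transcript was 0.61 across 83 members and 0.58 across 14976 genes at 2 months, and 0.49 across 82 members and 0.61 across 15040 genes at 6 months. Points of such a correlation share their libraries, and genes are not replicates. The 20 members under 48% GC had median ratios of 0.915 and 0.931 at 2 and 6 months, the 39 members from 48% to 54% GC 1.35 and 1.62, and the 24 members above 54% GC 1.65 and 1.88. All genes in the same ranges had medians of 0.540 and 0.487, of 1.11 and 1.16, and of 1.60 and 1.59. The members' median was thus above that of all genes in each range at both ages, by the least above 54% GC at 2 months. Subtracting the GC trend left the members' median at 0.22 and 0.38 on the log2 scale at the younger and older age, and subtracting both trends at 0.00105 and 0.23. Between the controls, rho with GC content was 0.045 across the 83 members and -0.27 across 14949 genes.

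**Figure D2:**
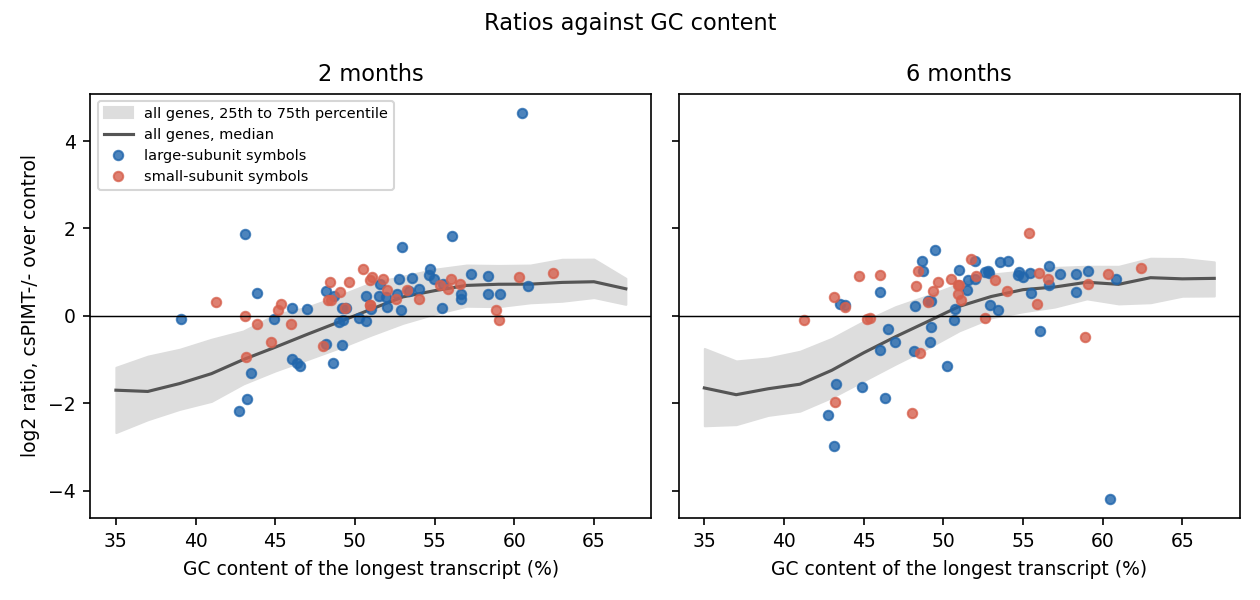
log2 ratio of csPIMT-/- over control (vertical axis) against the GC content of the longest transcript in percent (horizontal axis) at 2 months (left) and 6 months (right), with members of the large subunit in blue and of the small subunit in red. The grey line and band give the median and the range from the 25th to the 75th percentile of all genes in steps of 2% GC, and the members follow the rise of this line, with median ratios from 0.915 under 48% GC to 1.65 above 54% GC at 2 months.

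Both csPIMT-/- libraries can be set against both controls, with age as a term in limma, a linear model that shares the estimate of the spread across genes. At an adjusted p-value under 0.05, 24 of 83 members were called, 19 of them higher in csPIMT-/- hearts, where 12.1% of all 14935 genes were called higher, and 5 lower, where 17.9% of all genes were called lower. In both directions together 28.9% of members and 30% of all genes were called. The estimate rests on 1 residual degree of freedom. No member was called when the GC trend was subtracted or when the spread was not modeled by a trend on the mean. Nor was any other of the 14766 and 14935 genes tested in these settings. An unadjusted p under 0.05 in limma was found for 19 and 26 of 83 members in these settings, against 37 in the fit described. Over all genes it was found for 3850 of 14766 and 5931 of 14935, against 6791 of 14935. The quasi-likelihood test of edgeR called 17 members higher and 4 lower, beside 1619 higher and 2508 lower of all 14935 genes. In limma with genotype alone, the members' median log2 estimate was 0.60 without the 2-month and 0.41 without the 6-month control. Without the 2-month or the 6-month csPIMT-/- library it was 0.47 and 0.45, against 0.51 in the fit described. In 51 of 83 members (61.4%) both csPIMT-/- libraries lay above both controls, compared with 34.6% of all genes, and in 11 (13.3%) both lay below, compared with 35.1%.

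The 5 members called lower had the lowest limma estimates of all members, while other members had lower ratios at a single age. *Rpl5* encodes the large-subunit protein that carries 5S ribosomal RNA into the ribosome and binds Mdm2 outside it. Its normalized counts were 428 and 541 in the 2- and 6-month controls and 96.2 and 114 in the csPIMT-/- libraries of these ages. Both csPIMT-/- libraries were far below both controls, at ratios of 0.220 (0.171 to 0.280) and 0.206 (0.167 to 0.253), and limma gave a log2 estimate of -2.18, SE 0.35, adjusted p = 0.0149. Most of the *Rpl5* transcript is shared with other annotated genes, and only 6.16% of its 50-base stretches, the length of the reads, were unique to it. *Rpl15*, a large-subunit core protein, had normalized counts of 1222 and 1598 in the 2- and 6-month controls and 333 and 559 in the csPIMT-/- libraries of these ages. The groups did not overlap, with ratios of 0.267 (0.234 to 0.304) and 0.341 (0.309 to 0.375), and limma gave a log2 estimate of -1.68, SE 0.26, adjusted p = 0.0141. In *Rpl15*, 69.8% of the stretches were unique. *Rps24* encodes a small-subunit protein needed for maturation of 18S ribosomal RNA and mutated in some patients with Diamond-Blackfan anemia. It had normalized counts of 3874 and 4449 in the 2- and 6-month controls and 2048 and 1170.4 in the csPIMT-/- libraries of these ages. The lower level at 6 months gave a ratio of 0.256 against 0.518 at 2 months (limma log2 estimate -1.41, SE 0.30, adjusted p = 0.0258). With the GC trend subtracted, its log2 ratio went from -0.95 to 0.021 at 2 months, so that the lower value at that age was lost, and from -1.96 to -0.79 at 6 months. *Rpl23*, a large-subunit protein that also binds Mdm2, had normalized counts of 790.0 and 1033 in the 2- and 6-month controls and 382 and 289 in the csPIMT-/- libraries of these ages, at ratios of 0.474 and 0.273 (limma log2 estimate -1.43, SE 0.32, adjusted p = 0.0287). *Rps3a*, of the small subunit, had normalized counts of 2215 and 3359 in the 2- and 6-month controls and 1396 and 741 in the csPIMT-/- libraries of these ages, at ratios of 0.618 and 0.215 (limma log2 estimate -1.41, SE 0.40, adjusted p = 0.0472). In each of these 5 genes both csPIMT-/- libraries lay below both controls, and their transcripts had from 42.7% GC in *Rpl5* to about 48% in *Rps3a*, below the members' median of 50.9%. With the GC trend subtracted, the median log2 ratio of the 5 went from -1.07 to -0.56 at 2 months and from -1.96 to -1.03 at 6 months.

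The 19 members called higher were close to one another in size, and each had a level per length above the members' median of 30.5 RPKM (reads per kb of transcript, scaled to the reads on genes of the library). Among those named here, log2 estimates lay between 0.80 for *Rps9* and 1.10 for *Rpl13a*. *Rps15*, which acts in export and maturation of the small subunit, had normalized counts of 6112 and 6214 in the 2- and 6-month controls and 12218 and 13609.9 in the csPIMT-/- libraries of these ages. Its controls differed by a ratio of only 0.972 between ages, while csPIMT-/- over control was 1.96 and 2.13 (limma log2 estimate 1.07, SE 0.21, adjusted p = 0.0207). With the GC trend subtracted, its log2 ratio at 2 months fell from 0.97 to 0.22, and with both trends to -0.047, while at 6 months it went from 1.09 to 0.31 and 0.19. *Rpl19*, a large-subunit protein that forms a bridge to the small subunit, had normalized counts of 1256 and 1265 in the 2- and 6-month controls and 2684 and 2616 in the csPIMT-/- libraries of these ages. It was the only member above 2-fold at both ages, at 2.10 and 2.02 (limma log2 estimate 1.08, SE 0.21, adjusted p = 0.0217). *Rpl13a*, known for its role in translational silencing outside the ribosome and a host of 4 annotated small nucleolar RNAs, had normalized counts of 10595 and 10008 in the 2- and 6-month controls and 19846 and 24166 in the csPIMT-/- libraries of these ages and ratios of 1.84 and 2.35 (limma log2 estimate 1.10, SE 0.23, adjusted p = 0.0236). *Rpl18*, *Rpl41* and *Rps10* had log2 estimates of 0.98, 0.97 and 0.97 with adjusted p-values of 0.0241, 0.0250 and 0.0258 in limma. Others called higher included *Rplp1*, *Rplp2*, *Rps14*, *Rpl8*, *Rps3*, *Rps19*, *Rpl36*, *Rps21*, *Rpl32* and *Rps9*. *Rps19*, the gene most often mutated in Diamond-Blackfan anemia, had normalized counts of 3565 and 3318 in the 2- and 6-month controls and 6215 and 5819.8 in the csPIMT-/- libraries of these ages, with a ratio of 1.71 at 2 months and 1.71 at 6 months. Its log2 ratio of 0.77 at each age was 0.84 and 0.80 with the GC trend subtracted and 0.73 and 0.74 with both trends subtracted. These values rest on the longest annotated transcript of *Rps19*, of 2657 bases and 49.6% GC. Its annotated principal transcript has 774 bases and 57.2% GC, and the subtraction by that transcript is not given for this gene. Over the 19 members called higher, the median log2 ratio went from 0.84 to 0.36 with the GC trend and 0.11 with both trends at 2 months, and from 0.95 to 0.47 and 0.33 at 6 months. With both trends subtracted, 7 of the 19 were below 0 at 2 months, among them *Rps15*, *Rps10* (-0.090) and *Rpl8* (-0.019), and 1 was at 6 months.

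**Figure D3:**
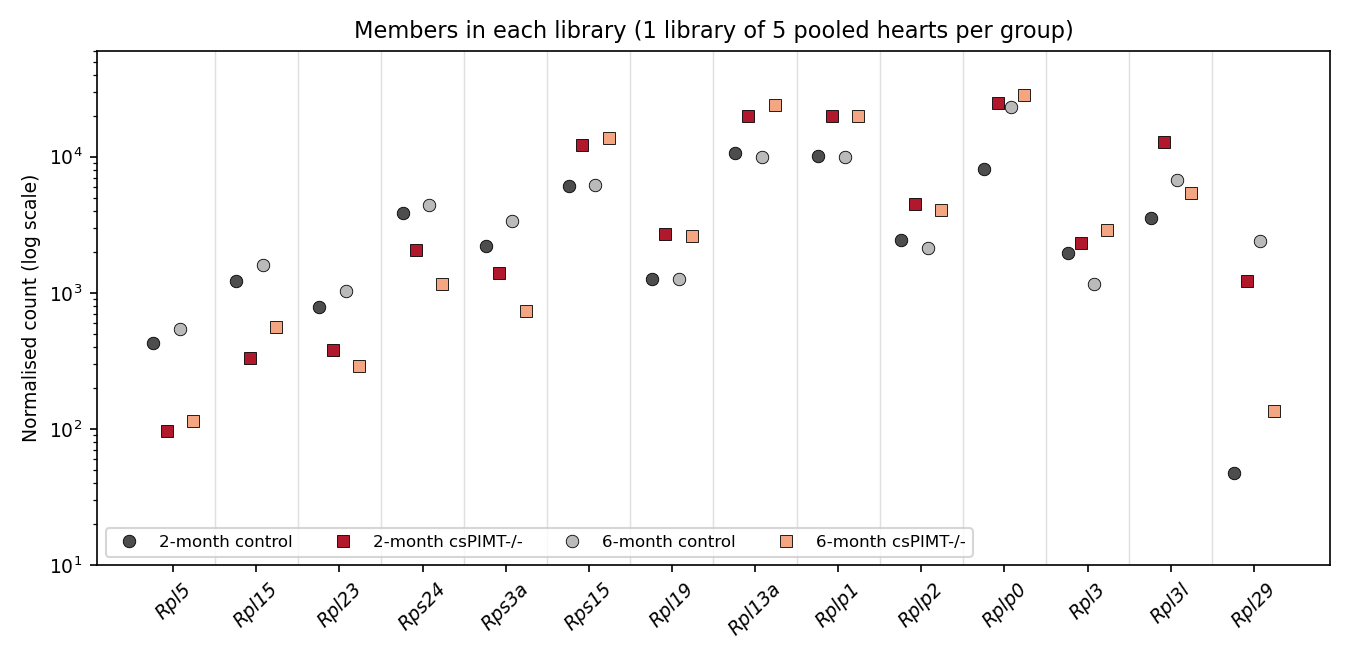
Normalized counts (log scale) of 14 members in the 4 libraries, with circles for controls and squares for csPIMT-/- hearts, dark at 2 months and light at 6 months. Squares lie below circles for *Rpl5*, *Rpl15*, *Rpl23*, *Rps24* and *Rps3a* and above them for *Rps15* through *Rplp2*, while *Rplp0*, *Rpl3l* and *Rpl29* differ more between the controls of the 2 ages than the members called by limma.

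Annotated transcription starts of members called in each direction are printed to show where a pyrimidine tract is or is not present, since such a tract at the start is the known shared feature of this gene family. Each line gives 30 bases on the strand of the gene, 15 before and 15 from the RefSeq start (GRCm38.p6), with the longest run of C and T in capitals where it is 5 bases or longer. The called-lower genes come first, then 5 called higher, then *Rpl3l*, the striated-muscle paralog of *Rpl3*.
Rpl15 (chr14:18270972-18271001, minus strand): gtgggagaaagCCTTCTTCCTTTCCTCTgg
Rpl5 (chr5:107900513-107900542, plus strand): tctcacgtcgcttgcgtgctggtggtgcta
Rps24 (chr14:24490663-24490692, plus strand): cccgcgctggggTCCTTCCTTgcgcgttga
Rpl23 (chr11:97782425-97782454, minus strand): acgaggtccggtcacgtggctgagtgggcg
Rps3a (chr3:86142654-86142683, minus strand): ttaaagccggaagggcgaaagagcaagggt
Rps15 (chr10:80292416-80292445, plus strand): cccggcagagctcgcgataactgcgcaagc
Rpl19 (chr11:98026695-98026724, plus strand): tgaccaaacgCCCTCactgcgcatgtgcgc
Rpl13a (chr7:45128731-45128760, minus strand): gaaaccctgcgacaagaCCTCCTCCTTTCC
Rpl18 (chr7:45718056-45718085, plus strand): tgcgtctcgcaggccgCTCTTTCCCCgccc
Rpl41 (chr10:128549154-128549183, minus strand): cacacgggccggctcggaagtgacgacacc
Rpl3l (chr17:24727811-24727840, plus strand): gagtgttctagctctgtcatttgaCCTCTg

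Runs of 9 or more pyrimidines stood near the start in *Rpl15* and *Rps24*, which were called lower, and in *Rpl13a* and *Rpl18*, which were called higher, so that this feature was found in both directions. Annotated starts may lie some bases from the start in use, and a window without a run says nothing about the gene's own start. RefSeq starts were at hand for 62 of the 83 members, counting the first listed start of each gene. The letters CTTTC, on the gene's strand from 30 bases before to 30 after the start, were present in 18 of 62 members (29.0%) and in 7.78% of all 27025 promoters. The letters CCGGAA, on either strand in the 300-base promoter, were present in 30 of 62 (48.4%) and in 15.2% of all promoters. For members with CTTTC the median log2 ratios at the younger and older age were 0.48 and 0.87, and for members without it 0.38 and 0.41. For CCGGAA the medians were 0.45 and 0.63 with and 0.40 and 0.34 without. A match is a description of the letters and not a binding site or a start in use.

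The P proteins form the stalk of the large subunit, the site where elongation factors bind. *Rplp1* had the highest level per length of all members, a mean of 821 RPKM. Its normalized counts were 10097 and 9965 in the 2- and 6-month controls and 19879.5 and 19805 in the csPIMT-/- libraries of these ages. The controls were within a ratio of 0.943 of each other and the csPIMT-/- libraries within 0.969, while csPIMT-/- over control was 1.93 and 1.94 (limma log2 estimate 0.99, SE 0.21, adjusted p = 0.0259). Its log2 ratio went from 0.95 to 0.30 at 2 months and to 0.29 at 6 months with the GC trend subtracted, and to 0.017 and 0.15 with both trends subtracted. *Rplp2* had normalized counts of 2459 and 2142 in the 2- and 6-month controls and 4492 and 4085 in the csPIMT-/- libraries of these ages, with ratios of 1.79 and 1.86 (limma log2 estimate 0.91, SE 0.20, adjusted p = 0.0279). *Rplp0*, the base of the stalk and often a reference gene in RT-qPCR, had normalized counts of 8178 and 23246 in the 2- and 6-month controls and 24819 and 28159 in the csPIMT-/- libraries of these ages. Its 2-month control stood alone at the low end. *Rplp0* was therefore 2.97-fold higher at 2 months, only 1.18-fold at 6 months, and 2.72-fold higher in the 6-month than in the 2-month control (limma log2 estimate 0.95, SE 0.37, adjusted p = 0.102). Among the highest means per length were also 586 for *Rpl8*, 457 for *Rps15* and 425 for *Rplp0*. By the length of the principal transcript *Rpl41* took the place of *Rplp0* among the first 5, and by the mean length over transcripts *Rpl13a* came second and *Rps15* was not among the first 5.

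Of the paralogs, *Rpl3l* replaces *Rpl3* in the ribosomes of heart and skeletal muscle. It had normalized counts of 3536 and 6687 in the 2- and 6-month controls and 12742 and 5421 in the csPIMT-/- libraries of these ages. It was 3.53-fold higher in csPIMT-/- hearts at 2 months (3.41 to 3.66) but at a ratio of 0.790 at 6 months (0.762 to 0.818), and the 6-month control was 1.81-fold above the 2-month control. *Rpl3* had normalized counts of 1962 and 1169 in the 2- and 6-month controls and 2307 and 2887 in the csPIMT-/- libraries of these ages, at ratios of 1.15 and 2.41. Within a library, *Rpl3l* had 1.80 times the reads of *Rpl3* in the 2-month control and 1.88 times in the 6-month csPIMT-/- library, against 5.52 times in the 2-month csPIMT-/- library and 5.72 times in the 6-month control. The balance of the pair thus went in opposite directions at the 2 ages, a difference that was not tested. Only 14.4% of the 50-base stretches of *Rpl3* were unique, while all of those of *Rpl3l* were.

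*Rpl22l1*, the paralog of *Rpl22*, made up 5.71% of the reads of the pair in the 2-month control, 2.55% in the 2-month csPIMT-/- library, 7.47% in the 6-month control and 7.17% in the 6-month csPIMT-/- library. The 2-month csPIMT-/- library was the low one, with a normalized count of 137 against 331 in its control. *Rps27l*, a paralog of *Rps27* induced by p53, had far more reads than *Rps27* in every library, between 4280 and 5970 against 42 to 137. *Rps27* had the lowest share of unique stretches of all members, 1.35%, and its ratio of 3.76 at 6 months (2.64 to 5.45), the highest at that age, rests on few reads. *Rpl36al* had between 5.26 and 14.7 times the reads of *Rpl36a*, the lowest value in the 6-month csPIMT-/- library. There *Rpl36al* was at a ratio of 0.453 (0.415 to 0.494), against 0.972 at 2 months. *Rpl39l*, known for its expression in the testis, had 5, 14, 13 and 1 reads in the 2-month control, 2-month csPIMT-/-, 6-month control and 6-month csPIMT-/- libraries, beside 3029, 2987, 2403 and 4230 for *Rpl39*. *Rps4y2* had normalized counts of 1575 and 749 in the 2- and 6-month controls and 1514 and 1283 in the csPIMT-/- libraries of these ages, the 6-month control being the low one, and *Rps4x* on the X chromosome had 6836 and 6105 in the 2- and 6-month controls and 8994 and 3469.6 in the csPIMT-/- libraries of these ages, with the 6-month csPIMT-/- library low. Of the factors that share the naming pattern, *Rpl7l1* had ratios of 1.13 and 0.834 and *Rps19bp1* 1.67 and 1.79.

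*Rpl29*, a large-subunit protein also known as a heparin-binding protein of the cell surface, varied most of all members. Its reads were 55 in the 2-month control, 994 in the 2-month csPIMT-/- library, 2739 in the 6-month control and 131 in the 6-month csPIMT-/- library. The 2-month control and the 6-month csPIMT-/- library were both low and the others high, so neither genotype nor age ordered the 4 libraries. The ratio of csPIMT-/- over control was 25.2 at 2 months (19.2 to 33.8) and 0.0551 at 6 months (0.0459 to 0.0657), and the controls differed from each other 48.4-fold (limma log2 estimate 0.27, SE 1.91, adjusted p = 0.923). Of its 50-base stretches, 33.2% were unique. *Rplp0* and *Rpl3l* had the same low library among the controls.

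Across the 82 members with a ratio at both ages, 51 were above 1 at both, 12 below 1 at both and 19 on opposite sides. The same split was not counted over all genes. Spearman's rho between the log2 ratios of the 2 ages was 0.39 over these 82 members, each age using its own control. In 11 of the 82 (13.4%) the counting intervals lay wholly on opposite sides of 1 at the 2 ages, which was the case for 10.4% of all 14781 genes with a ratio at both. *Rpl5*, *Rpl15* and *Rpl23* were below 0.5 at both ages. The other lowest ratios at 2 months were those of *Rpl22l1*, *Rpl17* (0.448) and *Rpl23a* (0.470). *Rpl23a* was at 2.41 at 6 months, with normalized counts of 92.6 and 36.9 in the 2- and 6-month controls and 44.4 and 91.6 in the csPIMT-/- libraries of these ages, which are few reads in each library. *Rps16* was at 2.13 at 2 months (1.16 to 4.02) and 1.81 at 6 months (1.12 to 2.96), on only 19 to 47 reads per library. *Rpl10a* was at 1.13 at 2 months and 2.87 at 6 months. *Rpl7* had normalized counts of 6507 and 6965 in the 2- and 6-month controls and 6277 and 2327 in the csPIMT-/- libraries of these ages, with only the 6-month csPIMT-/- library set apart, at a ratio of 0.325 (0.310 to 0.341).

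**Figure D4:**
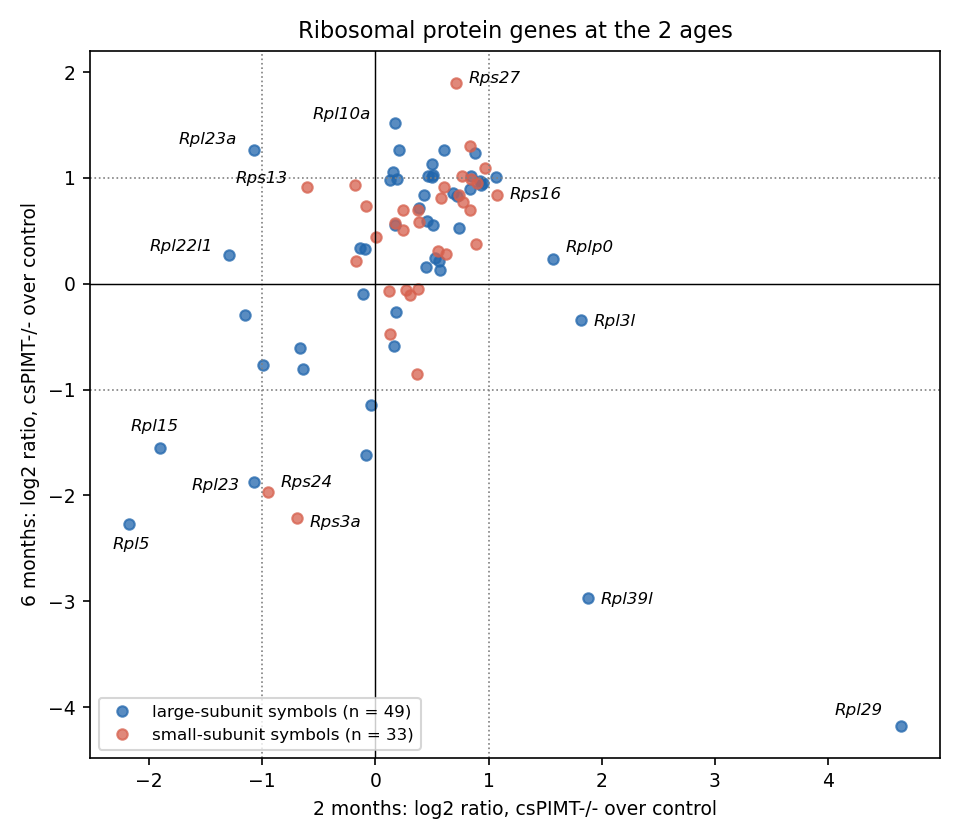
log2 ratio of csPIMT-/- over control at 2 months (horizontal axis) and 6 months (vertical axis) for 82 members, blue for the large and red for the small subunit, with dotted lines at a 2-fold difference. The upper right quadrant holds 51 members, *Rpl5*, *Rpl15*, *Rpl23*, *Rps24* and *Rps3a* lie in the lower left, and *Rpl29* lies alone at ratios of 25.2 and 0.0551.

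Small nucleolar RNAs, which guide the modification of ribosomal RNA, were annotated inside 29 members. These hosts had median ratios of 1.24 at 2 months and 1.5 at 6 months, and the 54 members without an annotated small nucleolar RNA 1.42 and 1.48. Sequence shared with other genes went along with the level of a member. The share of 50-base stretches found in no other annotated gene ran from 1.35% in *Rps27* to 100% in *Rpl3l*, *Rpl39l* and *Rps19bp1*, among others. The 18 members under 20% had a median level of 6.52 RPKM, the 31 members from 20% to 60% one of 31.2, and the 34 members above 60% one of 55.3, with a Spearman's rho of 0.35 over 83 members. How reads that match several genes were counted is not given in the sources used here, so the levels of members with few unique stretches are uncertain. Median ratios in these sets were 1.14, 1.31 and 1.45 at 2 months and 1.49, 1.49 and 1.54 at 6 months.

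**Figure D5:**
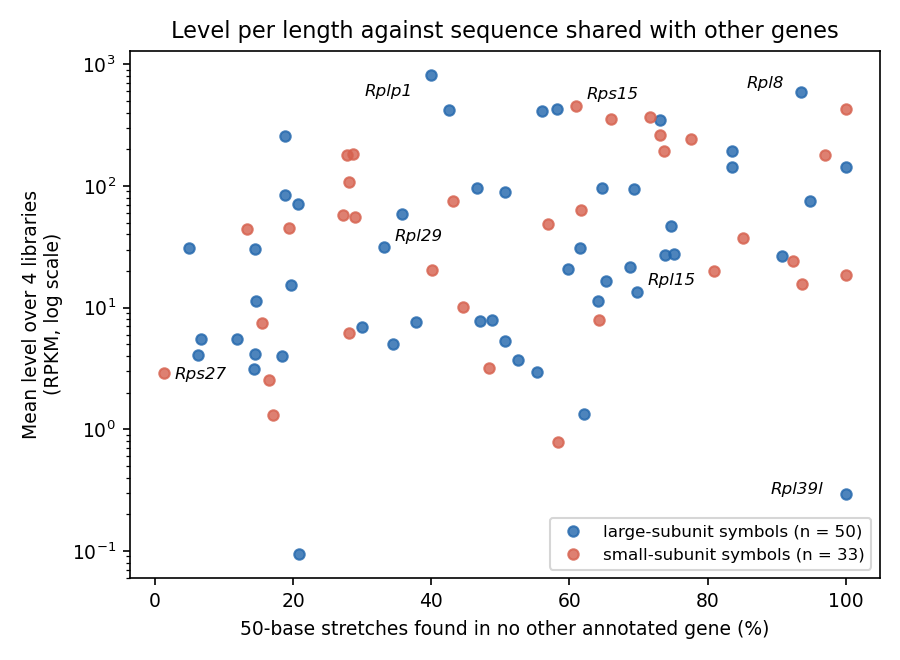
Mean level of each member over the 4 libraries, in RPKM by the longest transcript (log scale), against the percentage of its 50-base stretches found in no other annotated gene, blue for the large and red for the small subunit. Members with few unique stretches reach lower levels, with medians of 6.52 under 20%, 31.2 from 20% to 60% and 55.3 above 60%.

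Other genes of the translation machinery were compared in lists chosen with earlier results of these data known. Calls by limma in these lists stand beside 12.1% of all genes called higher and 17.9% called lower. Ribosomal protein genes outside the symbol pattern included *Rpsa*, *Fau* and *Gnb2l1* (now *Rack1*), with ratios between 1.72 and 1.81 at 2 months and between 1.92 and 2.58 at 6 months, and the 4 found were called higher by limma. *Gnb2l1* had normalized counts of 22852 and 21984 in the 2- and 6-month controls and 42204 and 45769 in the csPIMT-/- libraries of these ages. Mitochondrial ribosomal proteins, 76 genes that make the separate ribosome of mitochondria, had median ratios of 1.28 at 2 months and 1.08 at 6 months, with 12 called higher (15.8%) and 8 lower (10.5%). Their share of all reads was 0.506% and 0.666% in control and csPIMT-/- hearts of 2 months, and 0.499% and 0.527% in those of 6 months. *Mrpl1* was lowest in this list, at ratios of 0.173 and 0.161, and *Mrpl12* highest at 2 months, at 3.02. For 10 elongation factor genes the medians were 1.46 and 1.65, with 2 called higher (20%) and 1 lower (10%). *Eef2*, the translocation factor, was at 2.22 at 6 months and *Eef1a2*, the muscle and neuron form of factor 1A, at 2.14 at 2 months. For the initiation factors of the Eif3 and Eif4 families the medians over 23 genes were 0.897 and 1.02, with 7 called higher (30.4%) and 6 lower (26.1%). *Eif3e* was at 0.162 at 2 months and *Eif4e*, the cap-binding protein, at 0.218 at 6 months. Ribosome biogenesis factors had medians of 0.793 and 0.771 over 59 genes, with 9 called higher (15.3%) and 17 lower (28.8%). *Npm1* was at 0.231 and *Nop58*, a small nucleolar RNP protein, at 0.240 at 2 months, while *Rrp12* was at 3.03 and 3.24. The lower median of the assembly factors stood beside the higher median of the ribosomal proteins at both ages. The 10 small nucleolar RNA host genes without a protein had medians of 0.589 and 0.809, with none called higher and 3 lower (30%). Regulators around mTOR, Myc and LARP had medians of 0.985 and 1.17 over 16 genes, with 1 called higher (6.25%) and 5 lower (31.3%). *Rps6kb1*, the S6 kinase gene, was at 0.197 at 2 months, and *Myc* was at 4.96 at 6 months, where it had 108 reads in the control and 465 in the csPIMT-/- library.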

How the data were processed

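RNA from hearts of 5 mice per group was pooled, enriched for poly-A RNA, made into strand-specific TruSeq libraries and sequenced as single 50-base reads. The authors used STAR for alignment to mm10 and HTSeq 0.6.1p1 with a UCSC annotation for gene counts, and deposited normalized counts from DESeq2, a signal on DESeq2's scale of size factors. The versions of STAR and DESeq2 are not given in the sources used here. In each library 100% of values were whole multiples, within 1e-06 reads, of the smallest value above 0, and division by it gave 29823073 to 40705783 reads.

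Ratios used median-of-ratios size factors, 10 or more reads in 1 of the libraries compared and, on the log2 scale, 0.5 reads added. Intervals are 95% Clopper-Pearson intervals. With 1 library per group no p-value was computed at a single age. The fit over both ages used limma 3.58.1 on log2 counts after TMM normalization with 1 added, genotype and age as terms, a mean trend of the variance and Benjamini-Hochberg adjustment. Genes were kept if 2 libraries had 10 or more scaled counts and the sum reached 15. The quasi-likelihood test of edgeR 4.0.16 was an alternative. Both tests and the ratios were tested on simulated data with known changes. The deposited unit being normalized, the reads entering limma and edgeR were the recovered ones.

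Length and GC content were those of the longest transcript in GENCODE M21 (GRCm38), found for all 83 members, 2 of them by an older symbol. Trends were lowess curves with a span of 0.3. A 50-base stretch was unique if no transcript of another gene held it on either strand. Levels per length are RPKM over the reads on genes, computed from the recovered reads. Promoter sequences are RefSeq's (GRCm38.p6).

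The members and lists were chosen with earlier results of these data known. The genes named are *Tgs1*, paralogs and their partners, the P proteins, the 5 highest and lowest ratios at each age, the 5 highest levels, up to 10 members called by limma, and the 2 highest and lowest of each other list as far as the text needs them. *Rps3a*, *Rpl23*, *Rps19*, *Rpl7*, *Gnb2l1*, *Ttn*, *Myl3*, *Alas2* and the further members called by limma were added after their values were seen. Labels give no batch or date. Some genes that this rule covers are not reported here, though they remain in the counts.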

Additional observations from a re-analysis of the deposited data

Results flagged for a closer look

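In 11 members the counting intervals of the ratio of csPIMT-/- over control lay wholly on one side of 1 at 2 months and wholly on the other at 6 months, and the difference between the ages was not tested, since each group had 1 library. These were 13.4% of the 82 members with a ratio at both ages, and 10.4% of all genes did the same. Ratios at 2 and 6 months of those higher at 2 months were 1.12 and 0.666 for *Rpl27a*, 25.2 and 0.0551 for *Rpl29*, 3.91 and 0.0886 for *Rpl39l*, 3.53 and 0.790 for *Rpl3l*, 1.13 and 0.834 for *Rpl7l1*, 1.24 and 0.931 for *Rps20* and 1.29 and 0.554 for *Rps4x*. Ratios of those lower at 2 months were 0.938 and 1.26 for *Rpl22*, 0.406 and 1.20 for *Rpl22l1*, 0.470 and 2.41 for *Rpl23a* and 0.655 and 1.89 for *Rps13*. Counting intervals leave out the variation between pools, and the controls of the 2 ages differed 48.4-fold in *Rpl29*, 1.81-fold in *Rpl3l* and, 6 over 2 months, by a ratio of 0.381 in *Rpl23a*. *Rpl39l* had 5, 14, 13 and 1 reads.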

How the results depend on the processing

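The labels give no replicate numbers to pair, and each ratio rests on 1 pool per group, with wide counting intervals for members of few reads such as *Rpl39l*. The limma fit compared genotypes within each age by its age term. Genotype alone called 27 members, 21 higher and 6 lower, against 24. Of all 14935 genes it called 1962 higher and 2691 lower. At 2 months the members' median log2 ratio of 0.39 moved to 0.53 with the 6-month control, 0.22 with the GC trend subtracted, 0.24 with the GC trend of the principal transcript, -0.018 with the length trend, 0.00105 with both trends and 0.54 in members with over 60% unique stretches. The 6 of 83 members above 2-fold became 2 with the 6-month control and 3 with both controls summed. The 6 below 0.5 became 1 with either GC trend. Of the 34 members with over 60% unique stretches, 2 were above 2-fold and 2 below 0.5. At 6 months the median of 0.58 moved to 0.46 with the 2-month control, 0.38 and 0.39 with the GC trends, 0.25 with the length trend and 0.23 with both. The 16 of 82 members above 2-fold became 10 by total reads and 6 with the length trend. Of the 34 members with over 60% unique stretches, 6 were above 2-fold and 5 below 0.5, beside 9 of all 82 below 0.5. In limma the 24 members called, 19 higher and 5 lower, became 0 without the mean trend and 0 with the GC trend, settings in which no gene was called. Leaving out 1 library at a time, with genotype alone, gave 0 to 15 called (19 without the 2-month csPIMT-/- library), 0 to 11 higher and 0 to 8 lower, the lone library of a group being assumed to vary like the others. Over all genes, too, fewer were called in each of these fits than with all libraries, and fewest without a control. The drop in calls was thus not particular to the members. The ratio of shares became 1.45 at 2 months and 1.38 at 6 months without the 10 genes with most reads, and 1.49 at 6 months without paralogs. The median level per length, 30.5, was 51.9 by mean and 37.6 by principal transcript length. The effect of the GC and length trends on single members called by limma is given with their ratios. Other single log2 ratios past 2-fold that turned were those of *Rpl29* (-1.02 with the 6-month control and -0.047 with both summed at 2 months, 1.48 with the 2-month control at 6 months), *Rpl23a* (0.22 and -0.044 with the control of the other age) and *Rpl22l1* (0.16 with the principal-transcript GC trend at 2 months). The cause of these changes was not tested. The principal-transcript, paralog and unique-stretch settings were chosen after seeing the data.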
